A study of Mus musculus with 10 samples.

Results

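The genes described here are 9 transcripts that mark mesothelium or fibroblasts derived from it: Msln, Upk3b, Upk1b, Lrrn4, Wt1, Nkain4, Gpm6a, Slpi and Cd200. They were found by gene symbol in a table of 55487 genes, and all 9 were present once and had enough counts to be tested. The tumours were primary pancreatic cancers that arose in KPF mice on a C57BL/6J background, a strain engineered to develop this disease, and their polyA RNA was sequenced. The 5 tumours labelled Grem1-deleted (Grem1∆/∆) came from mice that received tamoxifen (100 mg/kg daily, 5 days in all, starting at 5 weeks). The 5 wild-type tumours (Grem1wt/wt) came from mice that received the peanut oil vehicle. All mice were used at 6 to 12 weeks of age. The alleles that make up KPF, the driver of the recombinase and the deleted part of Grem1 are not stated in these sources. Genotype and tamoxifen cannot be told apart. The samples are described as bulk tumour tissue while the extraction protocol speaks of sorted cells.

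Mesothelium is the single sheet of cells that covers the pancreas and the other organs of the body cavity and lines the cavity wall. It keeps epithelial features such as keratins and also expresses genes of mesodermal origin such as Wt1. Under inflammation and in tumours, mesothelial cells can lose their sheet and take on a fibroblast character, and in mouse pancreatic cancer they have been described as one source of fibroblasts that carry MHC class II molecules. None of the 9 genes is private to this cell type. Msln is made by many pancreatic carcinoma cells, Slpi by mucosal epithelium, Cd200 by endothelium, neurones and lymphocytes, and Gpm6a by neurones.

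The libraries held 10159891 to 18571519 estimated counts. Grem1 (chromosome 2, 113746164 to 113758646, minus strand, GRCm38) was not lower in the tumours labelled deleted, which held 6.83 to 110.1 CPM, the TMM-scaled counts per 1000000 counts of a library against 3.97 to 43.1 CPM in wild-type tumours, so the groups are named by label. Labelled-deleted tumour 1 lay far from every other library, with a first principal component score of -125.7 against -12.3 to 38. Its level of the epithelial keratin Krt8 was 441 CPM, against 804 to 1556 CPM elsewhere. Labelled-deleted tumour 2 held intestinal transcripts, with 897 CPM of the apolipoprotein gene Apoa4 against at most 4.72 CPM elsewhere, and 293 CPM of the disaccharidase gene Sis against at most 1.16 CPM. In bulk tissue, fewer cells of a type and less RNA per cell cannot be told apart.

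Of the 9 genes, 5 had the same pair of tumours at the top. In Upk3b, Lrrn4, Wt1, Nkain4 and Gpm6a, labelled-deleted tumours 3 and 4 were the 2 highest of the 10 tumours, with tumour 3 above tumour 4 each time, and labelled-deleted tumour 1 was the lowest. The other 7 tumours lay between them. Among all 16565 genes tested, 1.79% had labelled-deleted tumours 3 and 4 as the 2 highest, and 29.4% had labelled-deleted tumour 1 as the lowest. Grouping these 5 genes was a choice made after their values were seen, and no test was put on it.

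Upk3b (chromosome 5, 136038496 to 136046487, plus strand, GRCm38, the assembly also called mm10) encodes uroplakin 3b, a membrane protein named for the urothelium and used as a marker of mesothelium in the mouse. It held 0.712, 3.83, 14.0, 8.49 and 1.97 CPM in labelled-deleted tumours 1 to 5, against 3.54, 3.10, 3.88, 3.23 and 5.24 CPM in wild-type tumours 1 to 5. The wild-type values fell inside the range of the other group, whose highest and lowest tumours differed 19.7-fold. Means were 5.81 ± 5.46 CPM in tumours labelled deleted and 3.80 ± 0.862 CPM in wild-type tumours (SD, n = 5 each). The log2 fold change of labelled deleted over wild-type was 0.62 (SE 0.63), smaller than its error (adjusted p = 0.809, quasi-likelihood test of edgeR). Its size rested on labelled-deleted tumour 3, without which it was -0.013 (SE 0.57). On the mean of log2 CPM, which gives the low tumour 1 more weight, the difference was 0.004 (exact two-sided permutation test, p = 0.992).

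Lrrn4 (chromosome 2, 132868305 to 132880891, minus strand) encodes a leucine-rich repeat membrane protein first described in neurones and strongly expressed in mesothelium. The labelled-deleted tumours held 0.178, 2.27, 13.4, 9.71 and 2.37 CPM and the wild-type tumours 1.10, 0.911, 1.07, 1.34 and 2.32 CPM. Labelled-deleted tumour 5 lay just above the highest wild-type tumour and tumour 2 just below it, so the groups overlapped through tumours 1 and 2. Of the members, Lrrn4 had the largest log2 fold change, 2.05 (SE 0.82). By edgeR's quasi-likelihood test its p was 0.0309 before adjustment and its adjusted p was 0.759. It alone was under 0.05 before adjustment. An unadjusted p under 0.05 was found in 5.93% of all genes tested, and in 3.47% with the higher level in tumours labelled deleted. On log2 CPM the two-sided exact permutation test gave p = 0.278. Without labelled-deleted tumour 3 the log2 fold change was 1.44. The lowest value rested on 2 counts in labelled-deleted tumour 1, with an exact Poisson 95% interval of 0.242 to 7.22 counts that covers counting error only.

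Nkain4 (chromosome 2, 180934772 to 180954699, minus strand) encodes a membrane protein that interacts with the sodium-potassium ATPase. It held 0.534, 1.99, 8.21, 5.02 and 2.23 CPM in the labelled-deleted tumours, against 0.708, 2.92, 2.23, 1.71 and 2.42 CPM in the wild-type tumours. Labelled-deleted tumours 3 and 4 stood above every wild-type tumour and the other three did not. The log2 fold change was 0.86 (SE 0.62, adjusted p = 0.761 by edgeR's quasi-likelihood test), and 0.31 without labelled-deleted tumour 3. Its exons share 55 bases with Gm14341 on the other strand, and the sources do not say if strand was used in the counting.

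Gpm6a (chromosome 8, 54954843 to 55060871, plus strand) encodes a membrane glycoprotein of the proteolipid family, known for its part in the growth of neuronal processes. The labelled-deleted tumours held 0.445, 3.76, 9.93, 6.67 and 3.88 CPM and the wild-type tumours 2.91, 2.92, 2.97, 4.03 and 2.02 CPM. Tumours 3 and 4 of the labelled-deleted group were again above the wild-type range and tumour 1 below it. The log2 fold change was 0.73 (SE 0.57, adjusted p = 0.768 by edgeR's quasi-likelihood test), and 0.31 without labelled-deleted tumour 3. Markers of neurones and glia did not follow this order: their summed level was 32.8 CPM in labelled-deleted tumour 3 and 118 CPM in tumour 4, against 27.0 to 74.7 CPM in the other labelled-deleted tumours and 35.6 to 70.3 CPM in wild-type tumours.

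Wt1 (chromosome 2, 105126529 to 105173616, plus strand) encodes a zinc finger transcription factor of mesothelium and of lineages that arise from it, and also of kidney podocytes. Its level was 9.25, 24.0, 49.6, 39.8 and 22.9 CPM in the labelled-deleted tumours and 30.7, 29.1, 33.1, 32.3 and 25.1 CPM in the wild-type tumours. The labelled-deleted tumours lay on both sides of the narrow wild-type range. Means were 29.1 ± 15.8 CPM in tumours labelled deleted and 30.1 ± 3.17 CPM in wild-type tumours (SD, n = 5 each), a log2 fold change of -0.05 (SE 0.35, adjusted p = 0.977 by edgeR's quasi-likelihood test). Without labelled-deleted tumour 1, 2 or 5 the value was 0.18, 0.02 or 0.03.

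**Figure D1:**
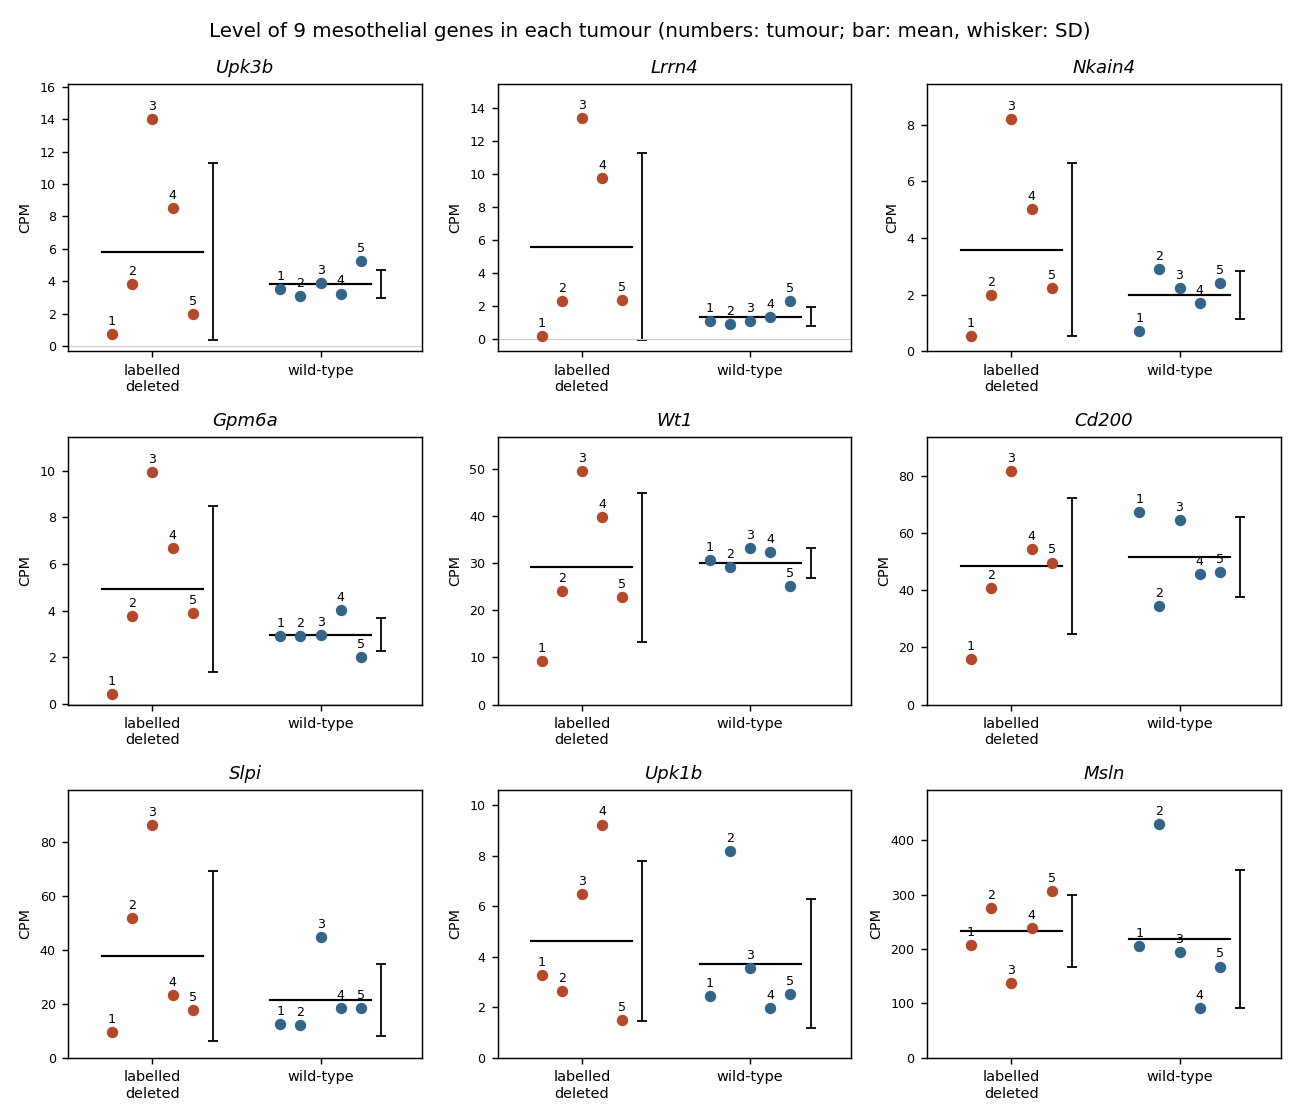
Level of each of the 9 genes in CPM (vertical axes) in the 5 tumours labelled deleted (left, red) and the 5 wild-type tumours (right, blue), with tumour numbers, the mean as a bar and the SD as a whisker. Labelled-deleted tumours 3 and 4 lead in the first 5 panels, Upk3b to Wt1, where tumour 1 is lowest, and Msln shows another order.

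The remaining members kept other orders. Cd200 (chromosome 16, 45382135 to 45409053, minus strand), a surface glycoprotein that signals to the inhibitory receptor Cd200r1 on myeloid cells, held 16.0, 40.9, 81.8, 54.5 and 49.6 CPM in labelled-deleted tumours, against 67.2, 34.3, 64.3, 45.7 and 46.4 CPM in wild-type tumours. Labelled-deleted tumour 3 was the highest and tumour 1 the lowest, and the groups overlapped between them. The log2 fold change was -0.09 (SE 0.36, adjusted p = 0.953 by edgeR's quasi-likelihood test), and 0.13 without labelled-deleted tumour 1, 0.02 and 0.004 when wild-type tumour 1 or 3 was left out.

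Slpi (chromosome 2, 164354070 to 164389095, minus strand) encodes a secreted inhibitor of neutrophil elastase and related proteases. The labelled-deleted tumours held 9.70, 52.0, 86.4, 23.3 and 17.7 CPM and the wild-type tumours 12.7, 12.3, 44.7, 18.6 and 18.6 CPM. Tumours 2 and 3 of the labelled-deleted group were the only ones above wild-type tumour 3, while tumour 4 was close to the rest. The log2 fold change was 0.82 (SE 0.59, adjusted p = 0.761 by edgeR's quasi-likelihood test), which was 0.25 without labelled-deleted tumour 3 and 1.28 without wild-type tumour 3. Labelled-deleted tumour 2 is the one with intestinal transcripts, whose part in its Slpi level was not tested. Elane, which encodes neutrophil elastase and is named after its values were seen, was at or under 3.14 CPM in every library and had too few counts to be tested.

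Upk1b (chromosome 16, 38773184 to 38800328, minus strand), a tetraspanin of the urothelial surface, was at 3.29, 2.63, 6.48, 9.23 and 1.51 CPM in labelled-deleted tumours and 2.44, 8.20, 3.55, 1.95 and 2.52 CPM in wild-type tumours. Labelled-deleted tumour 4 and wild-type tumour 2 led, one from each group. The log2 fold change was 0.32 (SE 0.55, adjusted p = 0.888 by edgeR's quasi-likelihood test), and -0.10 without labelled-deleted tumour 4. The other uroplakins were near or at 0: Upk3a was at 0 in all 10 libraries, which allows up to 3 counts per library, Upk2 reached 0.107 CPM and Upk1a 0.789 CPM.

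Msln (chromosome 17, 25748613 to 25754378, minus strand), the gene of the surface glycoprotein mesothelin, did not follow the other members. It held 207, 276, 137, 238 and 307 CPM in labelled-deleted tumours and 205, 431, 195, 92.1 and 168 CPM in wild-type tumours. Labelled-deleted tumour 3, the highest in 7 of the other 8 members, was the lowest of its group, and labelled-deleted tumour 1, the lowest in those 7, was in the middle of the range. Means were 233 ± 65.7 CPM in tumours labelled deleted and 218 ± 127 CPM in wild-type tumours (SD, n = 5 each), a log2 fold change of 0.10 (SE 0.37, adjusted p = 0.952 by edgeR's quasi-likelihood test). It was -0.025 without labelled-deleted tumour 5 and -0.10 without wild-type tumour 4. Wild-type tumour 4, the lowest in Msln, held the most Krt8 of all tumours, 1556 CPM. In labelled-deleted tumours 2 to 5 Krt8 was at 1388, 804, 955 and 1305 CPM. Among these, tumour 3 was the lowest and tumour 4 next, as in Msln, but Krt8 was highest in tumour 2 and Msln in tumour 5. The other epithelial markers are named here after their values were seen. Over the same tumours, Epcam and Krt18 were also lowest in tumour 3 with tumour 4 next. Krt19 was lowest in tumour 3 with tumour 5 next, Krt7 was lowest in tumour 2 and Cdh1 in tumour 4. Lcn2 was highest in tumour 3. The part of epithelial cells in the level of Msln was not tested. The estimated counts of Msln were not whole in 9 of 10 libraries, which means that some of its reads were shared with other genes, and its level is uncertain to that extent. The other 8 members had whole counts in all libraries.

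Per kilobase of exon (the merged exons of GENCODE M21), mean levels over the 10 tumours were 73.6 ± 31.2 CPM per kilobase for Msln, 25.1 ± 20.7 for Slpi, 15.1 ± 5.54 for Cd200 and 4.78 ± 1.73 for Wt1 (SD, n = 10). The low members followed at 2.26 ± 1.83 CPM per kilobase for Nkain4, 2.00 ± 1.3 for Upk1b, 1.36 ± 1.09 for Upk3b, 1.23 ± 0.819 for Gpm6a and 0.933 ± 1.19 for Lrrn4. Msln exceeded Slpi in 9 of 10 tumours, Slpi exceeded Cd200 in 9, and Cd200 exceeded Wt1 in all 10, as Wt1 did Nkain4. Below that the order was loose: Nkain4 exceeded Upk1b in 6 of 10 tumours and Upk3b exceeded Gpm6a in 6. The summed level of the 9 genes ran from 247 to 409 CPM in labelled-deleted tumours and from 201 to 524 CPM in wild-type tumours. Msln was the largest part of this sum in every tumour. Its share was smallest in labelled-deleted tumour 3, 137 of 406.5 CPM, and largest in labelled-deleted tumour 1, 207 of 247 CPM. The sum is thus no measure of the low members.

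Between the groups, 0 of the 9 members reached an adjusted p under 0.05 by edgeR, against 0% of all 16565 genes tested, of which 983 had an unadjusted p under 0.05. DESeq2 called 7 genes, 0.0224% of those to which it gave an adjusted p, and limma-voom 0; 0 members were among them. In 7 of 9 members the log2 fold change was above 0, as in 55.1% of all genes. The median log2 fold change was 0.62 over the members and 0.03 over all genes tested. Without labelled-deleted tumour 3 the members' median was 0.23, with 6 of 9 above 0. In 0 of 9 members did the groups not overlap, against 0.93% of all genes. The SD of log2 CPM was larger in the labelled-deleted group for 8 of 9 members, all but Msln, and for 74.7% of all genes. Without labelled-deleted tumour 1 it was larger for the same 8, and for 57.9% of all genes. For Wt1 the SD of log2 CPM was 0.93 in labelled-deleted tumours and 0.16 in wild-type tumours, and for Upk3b 1.61 in labelled-deleted and 0.29 in wild-type tumours. The SDs were closer in Upk1b, 1.00 in labelled-deleted and 0.78 in wild-type tumours, and in Slpi, 1.25 and 0.75. All these SDs include labelled-deleted tumour 1. Some wild-type tumours share the number in their tumour ID, and no labelled-deleted tumours share it with each other.

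**Figure D2:**
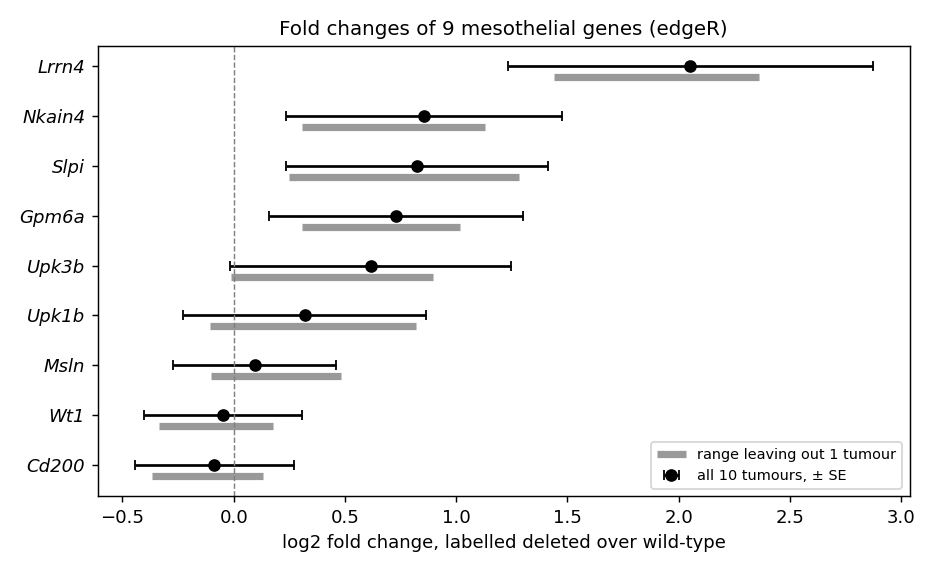
Log2 fold change of labelled deleted over wild-type for the 9 genes (horizontal axis), with the SE as whiskers around the value from all 10 tumours and a grey bar for the range when each tumour in turn is left out. Lrrn4 at 2.05 lies farthest from 0, and the bars of Upk3b, Upk1b, Msln, Wt1 and Cd200 cross 0.

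Across the 10 tumours, 29 of the 36 pairs of members had a positive Pearson's r of log2 CPM. With p-values from 100000 permutations adjusted over the 36 pairs, 13 pairs passed 0.05 by r, with adjusted p from 0.0128 to 0.0317, and 0 passed by Spearman's rho, whose lowest adjusted p was 0.179. An r at least as high as in those 13 pairs was found in 3.25% of all pairs of tested genes, a share added after seeing the data. Labelled-deleted tumour 1, the lowest in many genes, enters all of these values. The 13 were Upk3b with Lrrn4, Wt1, Nkain4, Gpm6a and Cd200, Lrrn4 with Wt1, Nkain4 and Gpm6a, Wt1 with Nkain4, Gpm6a and Cd200, and Gpm6a with Nkain4 and Cd200. Upk3b and Lrrn4 had r = 0.90 (permutation p = 0.00138) and rho = 0.66 (permutation p = 0.0432). Wt1 and Gpm6a had r = 0.92 (permutation p = 0.00142) and rho = 0.65 (permutation p = 0.0494). Msln had r from -0.26 to 0.27 and rho from -0.49 to 0.19 with the other 8 members.

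When the 2 tumours farthest from the median of one gene of the pair were left out, 0 pairs passed, so the 13 calls rest on having those tumours in. Leaving them out also narrows the range of that gene and lowers the number of tumours to 8. Upk3b and Lrrn4 then had r = 0.66 (permutation p = 0.0991, n = 8), and Wt1 and Gpm6a had r = 0.50 (permutation p = 0.2, n = 8). Without labelled-deleted tumours 1 and 2 also 0 pairs passed, while r among Upk3b, Lrrn4, Wt1, Nkain4 and Gpm6a was still 0.62 to 0.85. With values centred within each group 17 pairs passed. Msln with the other 8 members ran from r = -0.47 to -0.09 without the 2 farthest tumours.

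**Figure D3:**
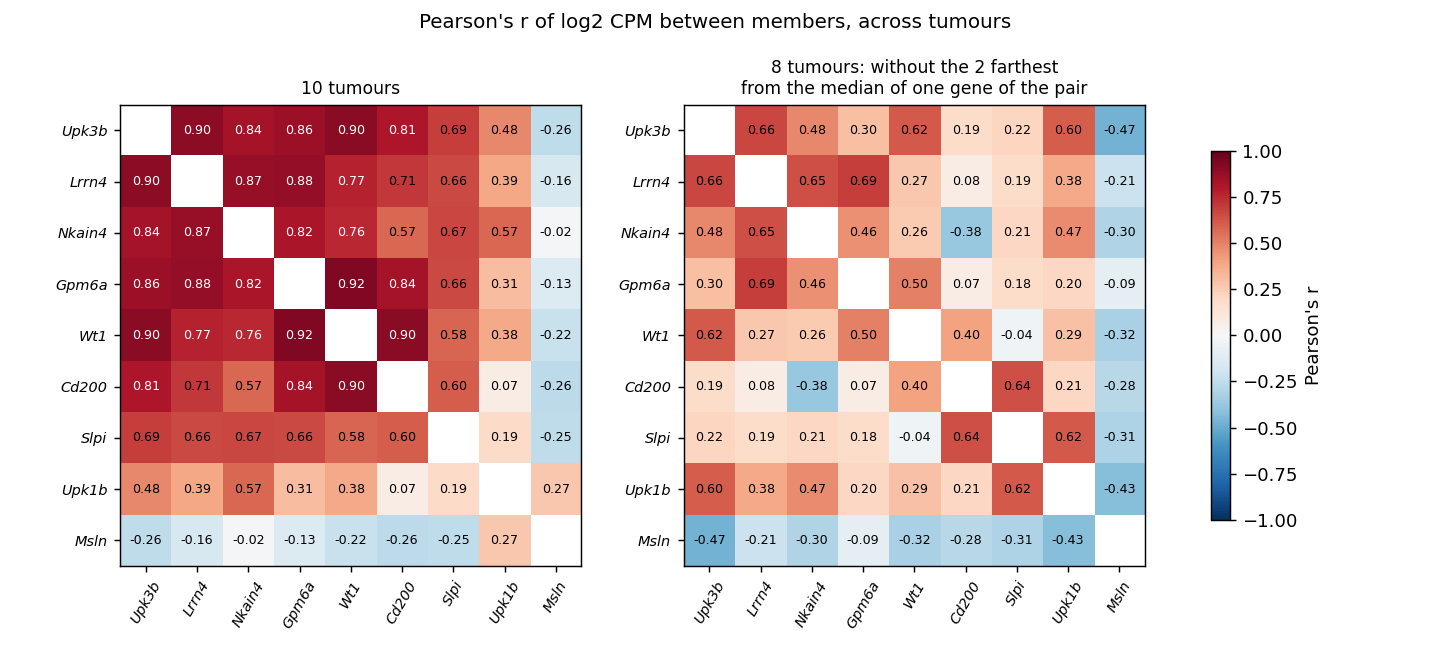
Pearson's r of log2 CPM for each pair of the 9 genes, over 10 tumours (left) and over the 8 left after dropping the 2 farthest from the median of the gene that comes first in the order Msln, Upk3b, Upk1b, Lrrn4, Wt1, Nkain4, Gpm6a, Slpi, Cd200 (right). The block of high r from Upk3b to Wt1 on the left fades on the right, and Msln has no r above 0.27 in either panel.

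**Figure D4:**
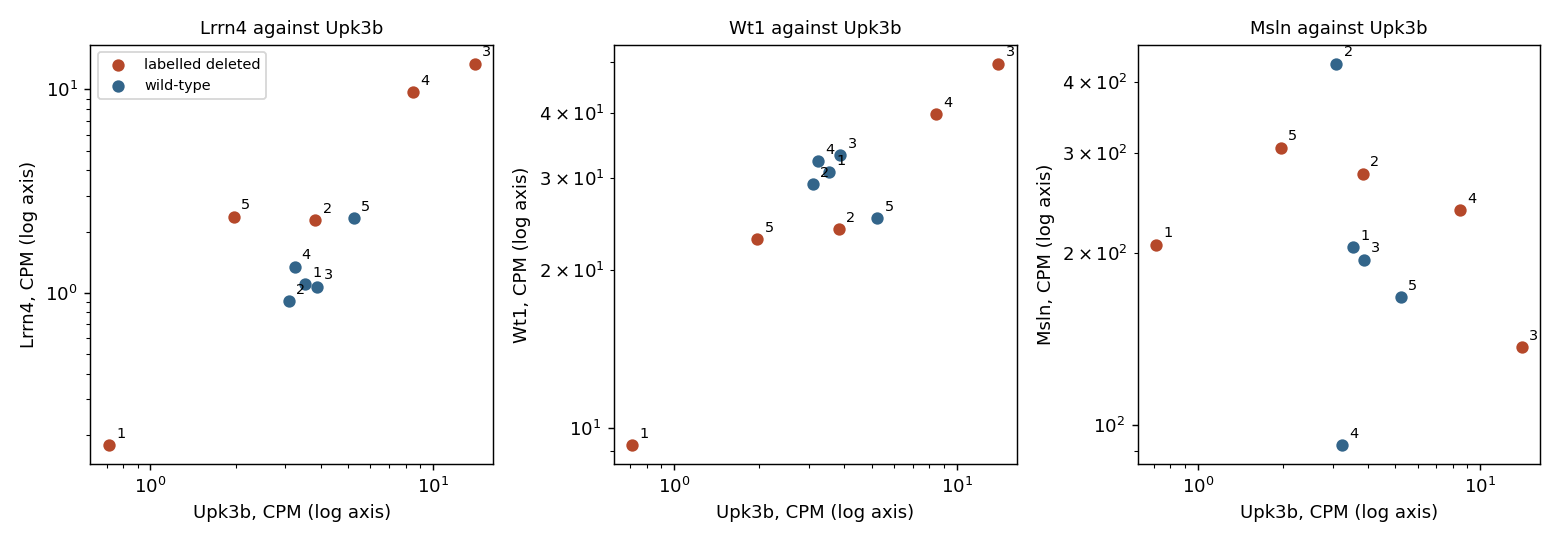
Levels of Lrrn4, Wt1 and Msln (vertical log axes, CPM) against Upk3b (horizontal log axes, CPM), with red points for tumours labelled deleted and blue points for wild-type tumours, numbered. Labelled-deleted tumours 3 and 4 are at the upper right for Lrrn4 and Wt1 and tumour 1 at the lower left, whereas for Msln tumour 3 is low at 137 CPM.

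The promoters of members that varied together are shown because these genes share an order of tumours, and the 3 printed lie on different chromosomes. RefSeq sequences for GRCm38.p6 (250 bases before to 50 after a transcription start) were matched by symbol for Upk3b, Lrrn4, Gpm6a, Cd200 and Slpi. Promoters of Wt1, Nkain4, Msln and Upk1b were not analysed here, so 3 of the 5 genes with the shared order are covered. Capitals mark GGAATG, or its reverse complement CATTCC, the letters bound by TEAD transcription factors, the DNA-binding partners of YAP.
Upk3b, chr5:136038246-136038545, plus strand: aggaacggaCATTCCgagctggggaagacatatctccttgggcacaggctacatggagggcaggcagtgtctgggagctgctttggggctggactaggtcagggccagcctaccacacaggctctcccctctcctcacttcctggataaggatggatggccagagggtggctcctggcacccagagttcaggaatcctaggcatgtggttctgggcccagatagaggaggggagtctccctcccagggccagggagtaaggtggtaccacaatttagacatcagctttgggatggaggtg
Lrrn4, chr2:132880813-132881112, minus strand: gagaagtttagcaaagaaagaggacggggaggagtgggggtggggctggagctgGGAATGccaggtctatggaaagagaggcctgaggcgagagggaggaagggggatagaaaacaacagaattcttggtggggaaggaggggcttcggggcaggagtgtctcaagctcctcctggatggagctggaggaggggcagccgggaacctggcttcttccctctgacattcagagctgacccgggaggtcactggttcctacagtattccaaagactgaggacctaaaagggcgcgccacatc
Gpm6a, chr8:54779184-54779483, plus strand, the upstream of its 2 starts: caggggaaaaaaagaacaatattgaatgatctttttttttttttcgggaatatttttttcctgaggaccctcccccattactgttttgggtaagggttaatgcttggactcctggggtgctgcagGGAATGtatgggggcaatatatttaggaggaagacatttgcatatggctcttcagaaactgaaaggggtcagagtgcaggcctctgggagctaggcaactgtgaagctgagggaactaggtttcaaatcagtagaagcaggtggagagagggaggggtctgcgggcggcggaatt

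The match began 241 bases before the start in Upk3b, 196 in Lrrn4 and 125 in this window of Gpm6a. The start of this window is at base 54779434, far before the GENCODE M21 coordinates of Gpm6a given above, which begin at 54954843. Its downstream start, at 54954728, lies close to those coordinates. Cd200 also had a match, 155 bases before its start, and Slpi and the downstream start of Gpm6a had none. The 6 windows of 5 member genes thus held 4 with a match, and 14.7% of 32851 RefSeq promoters of the same length held these letters on either strand. GTGGGAG, a core of the element bound by WT1, was in 0 of the 6 windows and in 9.73% of all promoters. With 0 matches of GTGGGAG, an overlap between the motifs could not arise in these windows. The motifs were chosen after the members' values and sequences were seen, and a match is a description of letters.

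Beyond the members, 11 other genes known from mesothelium were listed, of which 10 could be tested. Of these, 7 had a log2 fold change above 0 and 3 below, 0 reached an adjusted p under 0.05 by edgeR (2 had an unadjusted p under 0.05), and the median was 0.39. Without labelled-deleted tumour 3 it was 0.05, with 5 of 10 above 0. The 3 most abundant did not differ beyond the spread. Aldh1a2, a retinoic acid synthesizing enzyme, averaged 106 ± 58.6 CPM in labelled-deleted tumours and 127 ± 57.0 CPM in wild-type tumours (SD, n = 5 each). Pdpn, a surface mucin-type protein, averaged 75.3 ± 14.2 CPM in labelled-deleted tumours and 76.3 ± 19.5 CPM in wild-type tumours. The growth factor binding protein gene Igfbp6 averaged 58.5 ± 43.1 CPM in labelled-deleted tumours and 58.9 ± 14.2 CPM in wild-type tumours.

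The order with labelled-deleted tumours 3 and 4 highest was found in 2 of these 10, Igfbp6 and Crb2, against 1.79% of all genes. Igfbp6 held 17.2, 32.1, 112, 98.1 and 33.3 CPM in labelled-deleted tumours, against 40.9 to 77.5 CPM in wild-type tumours. Crb2, a polarity protein chosen for mention after its values were seen, as are the other genes of this paragraph, held 4.84 and 3.04 CPM in labelled-deleted tumours 3 and 4, against 0.157 to 1.92 CPM in wild-type tumours. Muc16, the gene of a mucin that binds mesothelin, was at 0.801, 0.993, 4.93, 1.55 and 1.84 CPM in labelled-deleted tumours and at 0.807 to 1.42 CPM in wild-type tumours, a log2 fold change of 1.02 (SE 0.48, adjusted p = 0.759 by edgeR's quasi-likelihood test). The WNT agonist gene Rspo1 was highest in labelled-deleted tumour 3 at 19.9 CPM, and wild-type tumour 3 came next at 9.99 CPM. Bnc1, a zinc finger protein of mesothelium and squamous epithelium, had another order, with 12.8, 6.81, 5.66, 4.27 and 0.986 CPM in labelled-deleted tumours 1 to 5, against 0.157 to 3.10 CPM in wild-type tumours. Its log2 fold change was 1.94 (SE 0.75, adjusted p = 0.759 by edgeR's quasi-likelihood test). Cldn15 stood at 71.2 CPM in labelled-deleted tumour 2, which also held the intestinal transcripts, and did not exceed 4.51 CPM in any other tumour. Claudin 15 is abundant in intestinal epithelium. Calb2, the mesothelial marker calretinin, reached 0.578 CPM at most and had too few counts to be tested.

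Of 12 partners and relatives of the members, 6 could be tested. All 6 had a log2 fold change below 0, against 44.9% of all genes, with a median of -0.24, and 0 were called by edgeR (2 had an unadjusted p under 0.05). Some lay close to 0: Gpm6b at -0.0002 (SE 0.098), Nkain1 at -0.04 (SE 0.19) and Nkain2, named after its values were seen, at -0.045 (SE 0.53). Labelled-deleted tumour 1 was the lowest in 5 of the 6, and without it 4 were below 0 and the median was -0.12. The most abundant were Gpm6b, a paralogue of Gpm6a, at 63.9 ± 7.50 CPM in labelled-deleted tumours and 63.9 ± 5.49 CPM in wild-type tumours, Lrrn2 at 19.3 ± 11.1 CPM in labelled-deleted and 26.1 ± 8.39 CPM in wild-type tumours, and Nkain1 at 12.8 ± 3.74 CPM in labelled-deleted and 13.2 ± 0.369 CPM in wild-type tumours (SD, n = 5 each). The highest and lowest tumours differed 1.35-fold in Gpm6b and 22.3-fold in Gpm6a. Cd200r1, the receptor for Cd200, named after its values were seen, averaged 7.96 ± 2.14 CPM in labelled-deleted tumours and 11.8 ± 2.22 CPM in wild-type tumours, a log2 fold change of -0.57 (SE 0.21) with an adjusted p of 0.759 by edgeR's quasi-likelihood test.

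Genes of antigen-presenting fibroblasts were listed because mesothelial cells have been described as their source. In labelled-deleted tumours 1 to 5 the MHC class II chaperone gene Cd74 held 36.8, 303, 1647, 691 and 1138 CPM, against 818 to 2187 CPM in wild-type tumours. Of the 5 genes of this list 4 had a log2 fold change below 0, with a median of -1.08 and 0 called by edgeR. The median was -0.49 without labelled-deleted tumours 1 and 2. The one gene with an unadjusted p under 0.05 lay on the other side: Saa3, an acute phase serum amyloid gene named after its values were seen, held 182, 237, 499, 166 and 122 CPM in labelled-deleted tumours 1 to 5, against 52.0 to 148 CPM in wild-type tumours. Its log2 fold change was 1.21 (SE 0.44, adjusted p = 0.759 by edgeR's quasi-likelihood test). Macrophages and B cells also make the MHC class II genes of the list. Labelled-deleted tumour 3 was the highest of its group in Cd74 and tumour 5, not tumour 4, came next, so this order differed from that of Upk3b and Lrrn4.

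Other cell type markers moved with some of these tumours. The 5 lymphocyte markers summed to 186 CPM in labelled-deleted tumour 3 and 13.4 CPM in tumour 4, against 1.69 to 21.4 CPM in the other labelled-deleted tumours and 0.977 to 63.4 CPM in wild-type tumours. The fibroblast gene Dcn was highest in labelled-deleted tumours 3 and 4 at 1123 and 610 CPM, against 304 to 524 CPM in wild-type tumours, and lowest in labelled-deleted tumour 1 at 147 CPM. The collagen gene Col1a1 was at 8805 and 7147 CPM in labelled-deleted tumours 3 and 4, inside the 5159 to 10434 CPM of wild-type tumours. The 6 fibroblast markers summed to 5265 CPM in labelled-deleted tumour 1, against 10642 to 18461 CPM in the other labelled-deleted tumours and 10767 to 19115 CPM in wild-type tumours. Tumour 1 was the lowest in 4 of the 6, but not in Pdgfra and Pdgfrb, named after their values were seen. Pdgfrb was highest there at 353 CPM, against 152.5 to 224.5 CPM in wild-type tumours. Labelled-deleted tumours 1 to 5 held 227, 160, 249.5, 223 and 124 CPM of Pdgfra, against 82.5 to 137 CPM in wild-type tumours. Its log2 fold change was 0.75 (SE 0.20, adjusted p = 0.759 by edgeR's quasi-likelihood test). Acinar markers summed to 1663 CPM in labelled-deleted tumour 3 and 251 CPM in tumour 4, with 42.1 to 4528 CPM in the other labelled-deleted tumours, against 18.2 to 6654 CPM in wild-type tumours. Markers of endothelium, where Cd200 is also made, summed to 114 to 419 CPM in labelled-deleted tumours and to 186 to 430 CPM in wild-type tumours. Within the labelled-deleted group the sum was lowest in tumour 1 and highest in tumour 3, as Cd200 was. Wild-type tumour 1 had the highest sum of all tumours, and Cdh5 was lowest in labelled-deleted tumour 2. Of all genes tested, 29.4% had labelled-deleted tumour 1 as the lowest and 12.6% had labelled-deleted tumour 3 as the highest. The 4 smooth muscle markers summed to 489 CPM in labelled-deleted tumour 2 and 31.8 to 182 CPM in the other labelled-deleted tumours, against 109 to 211 CPM in wild-type tumours. The 7 epithelial markers summed to 1785 CPM in labelled-deleted tumour 1 and 3408 to 4799 CPM in the other labelled-deleted tumours, against 4446 to 5413 CPM in wild-type tumours. The part of these cell types in the levels of the members was not tested.

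By likeness of pattern, measured as Pearson's r of log2 CPM over the 10 tumours against all tested genes, the 3 genes nearest to Upk3b were Plxna4 (r = 0.96), a semaphorin co-receptor, C6 (r = 0.96), a terminal complement component, and Pkhd1l1 (r = 0.95). Nearest to Lrrn4 were Cntn2, Adh7 and Glcci1 (r = 0.94, 0.94 and 0.93), and nearest to Wt1 were Nnmt, Pkhd1l1 and Pla2r1 (r = 0.98, 0.97 and 0.97). Nkain4 was nearest to Marchf8, Col4a6 and Foxo1 (r = 0.94, 0.94 and 0.92) and Gpm6a to Cyp7b1, Isyna1 and Thbd (r = 0.97, 0.96 and 0.96). Pkhd1l1 was near both Upk3b and Wt1, and ran from 0.089 to 16.0 CPM. A high r does not mean a like size of change. Marchf8 ran only from 83.2 to 101.5 CPM and Foxo1 from 44.2 to 75.9 CPM, while Nkain4 ran from 0.534 to 8.21 CPM.

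Cd200 was nearest to Gm47761, to Ramp2, a receptor activity modifying protein of endothelium, and to C1qtnf9 (r = 0.99, 0.98 and 0.98). The nearest to Slpi were the appetite hormone gene Ghrl, Asprv1 and Serpinb2 (r = 0.96, 0.94 and 0.92), to Upk1b Supv3l1, Trpt1 and Ift27 (r = 0.90, 0.90 and 0.88), and to Msln Ggct, Fam160a1 and Tbc1d2 (r = 0.90, 0.89 and 0.88). Without labelled-deleted tumour 1, an alternative chosen after seeing the data, these r values lay between 0.88 and 0.96. They are picked as the highest of 16565 and describe these 10 libraries, which include a tumour that was the lowest in 29.4% of all genes. Supv3l1 ran only from 14.4 to 18.5 CPM, while Upk1b ran from 1.51 to 9.23 CPM. No member was among the 3 nearest genes of another: the ranks ran from 12 for Upk3b in likeness to Lrrn4 to 12687 for Cd200 in likeness to Msln, and Upk3b ranked 161 and Lrrn4 1080 in likeness to Wt1.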

How the data were processed

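The authors deposited 1 table of estimated counts per gene for the 10 libraries and 1 file per tumour of normalized log2 values, whose transformation is not named. Per the submitters' processing notes, HISAT2 2.2.1, RSEM 1.3.3 and DESeq2 1.32.0 were used with build mm10. The strand setting and the annotation were not stated. Estimated counts were rounded, filtered with filterByExpr of edgeR 4.0.16 (minimum count 10), scaled with TMM and tested with the robust quasi-likelihood F test over 16565 genes, with Benjamini-Hochberg adjustment. SEs come from the F statistic, and a prior count of 2 was used for log2 CPM. Exact permutation tests used all 252 assignments of 5 against 5 (smallest p 0.00794). The deposited log2 values served 1 alternative (limma 3.58.1). R was 4.3.3, DESeq2 1.42.0, Python 3.11.15, and the fits were tested on simulated data. Groups come from the titles. No label says that tumours came from separate animals, so p-values measure the spread between these samples. The closest libraries of a group differed beyond sampling noise (chi-square 25.9 per degree of freedom). The members and lists were chosen with earlier results of these data known. Genes were named by a rule: the members, the 3 genes most like each, and, from the other lists, genes among the 3 most abundant or at 0. Some lists are given only as sums and some are not described. Other genes are said to be chosen after their values were seen.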

Additional observations from a re-analysis of the deposited data

Results flagged for a closer look

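Among the 9 members, Grem1 and the 3 most abundant genes of the 2 related lists, each group of 5 tumours was searched for a tumour far from its group on log2 CPM. Chance flags about 1 in 20 groups, and 2 of 32 were found, neither in a member. Labelled-deleted tumour 1 held 11.8 CPM of Aldh1a2, against 97.1 to 158 CPM in the other 4 tumours labelled deleted. Wild-type tumour 2 held 12.1 CPM of Lrrn2, against 26.8 to 34.7 CPM in the other 4 wild-type tumours.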

How the results depend on the processing

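In 21 alternative fits 0 of the 9 members were called, and 0 genes in all but DESeq2, which called 7. Of 189 member fold changes under these alternatives 174 kept their sign and 15 reversed. Leaving out 1 tumour at a time moved the log2 fold change from -0.10 to 0.48 for Msln, -0.013 to 0.90 for Upk3b, -0.10 to 0.82 for Upk1b, -0.34 to 0.18 for Wt1 and -0.37 to 0.13 for Cd200. It stayed above 0 for Lrrn4 (1.44 to 2.36), Nkain4 (0.31 to 1.13), Gpm6a (0.31 to 1.02) and Slpi (0.25 to 1.28). Without labelled-deleted tumours 1 and 2 Wt1 was at 0.31 and Cd200 at 0.26. With the number in the tumour ID as a block Upk1b was at -0.092, Wt1 at 0.049 and Cd200 at 0.13. Labelled-deleted tumours 1 and 4 have the ID numbers 25 and 39, which no other tumour has. The fit with this block therefore takes no group difference from them. Without labelled-deleted tumour 4 Upk1b was at -0.10, and without labelled-deleted tumour 1 Wt1 was at 0.18 and Cd200 at 0.13. The cause of these reversals was not tested. With the replicate number as a block 0 genes were called and Lrrn4 was at 1.37. The replicate numbers did not pair all the tumours, since deviations of same-numbered tumours correlated at -0.016 to 0.39 and in 2 of 5 a tumour was nearest to its own number. These were numbers 3 and 5, whose tumours also share the number in the tumour ID, 38 and 40. ID number 36 was found in both groups too. Wild-type tumours 2 and 3 share ID number 38, and wild-type tumours 4 and 5 share 40. What the ID number stands for is not stated. Of the 13 member pairs called by Pearson's r, 0 were called without the 2 farthest tumours and 0 without labelled-deleted tumours 1 and 2, fits with fewer samples, and 17 with values centred within groups. The mean levels of all 9 members moved by less than 1 SD without TMM scaling. Lowest counts of 2 for Lrrn4, 5 for Gpm6a, 6 for Nkain4, 8 for Upk3b and 23 for Upk1b limit their low values.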
